A study of Mus musculus with 3 samples.

Results

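The ascending thin limb (ATL) is the thin-walled segment of the loop of Henle (LOH) that climbs from the hairpin turn through the inner medulla. It is nearly impermeable to water and lets sodium chloride leave the tubule, and this passive exit is one of the steps by which the medulla concentrates urine. Descending thin limb (DTL) cells, which carry fluid down to the turn, are its neighbors. Members were chosen by name, as the cells whose deposited cluster is ATL. There were 13120 of them among 181257 cells, or 7.24% of the total and 18.3% of the 71510 LOH cells. All 13120 also carried the cell type LOH. The tables analysed hold per-cell totals and no single genes, so the name could not be checked against marker genes.

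The study compared male BALB/c mice in 3 conditions, by single-cell RNA sequencing of the dissected renal medulla, which the labels call kidney papilla. Healthy controls (12 mice in 4 pools) carry no surgery in the labels. In reversible unilateral ureteral obstruction (R-UUO) the left ureter was clamped at 12 to 13 weeks of age and later released. The clamp stayed for 5 to 7 days depending on the strain, and 7 days is the time described for BALB/c mice followed long term. Tissue was taken at day 28 (12 mice in 4 pools) and day 84 (6 mice in 2 pools). The methods describe removal of the opposite kidney 10 days after reversal for long-term work, and the age of the controls is not given in the sources used here. Each pool combined 3 to 4 mice, so single mice cannot be separated and the pool was the replicate.

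Cells were fixed and their RNA was read with gene probes, in units of UMIs, tags that count each captured molecule once. Control pools held 1597 to 2803 ATL cells, day 28 pools 290 to 589, and the day 84 pools 875 and 1258. Some pools stood apart. UMI totals were fractional in control pool 1, control pool 2 and day 28 pool 1 had the highest UMI counts of their conditions, and no ATL cell of day 84 pool 2 had a mitochondrial UMI. In each pool, 22.3% to 62.6% of ATL cells had a droplet barcode that also occurred in another pool of their condition, against 9.12% to 13.5% for pools of other conditions. That pools of one condition shared a droplet run is inferred here from this overlap, which also depends on how many other pools are compared. Under that reading, differences between droplet runs and differences between conditions cannot be told apart below.

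ATL cells made up a smaller share of the dissected cells after R-UUO than in controls at both times. They made up 34.6%, 25.7%, 26.3% and 32.6% of LOH cells in control pools 1 to 4. In day 28 pools 1 to 4 they made up 7.05%, 5.78%, 9.59% and 4.56%. The day 84 pools held 11.9% and 13.4%. No pool after injury reached the lowest control pool, and both day 84 pools exceeded all day 28 pools. Among the 7 LOH clusters, of which 42.9% were called lower at each time, ATL had the most negative change at both times. Counting error was small next to these gaps, with a 95% Wilson interval of 4.07% to 5.10% for the lowest pool.

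**Figure D1:**
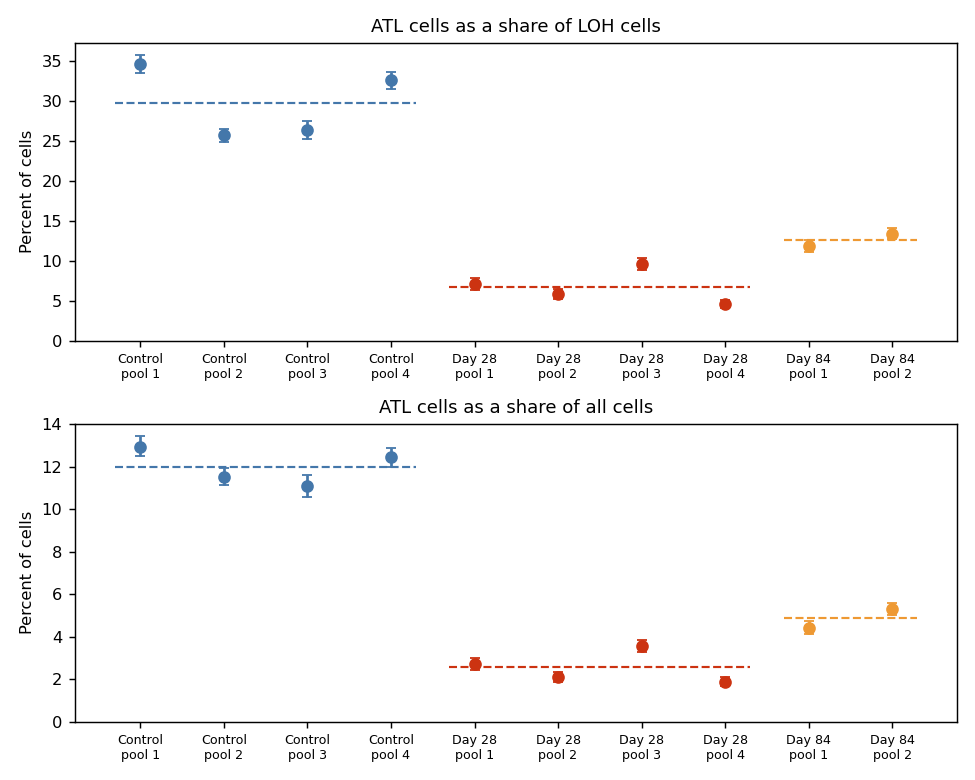
Share of ATL cells in each pool, in percent of LOH cells and of all cells. Points are pools, bars are 95% Wilson intervals that cover counting error only, and dashed lines are means of the pools; every day 28 and day 84 pool sits below every control pool in both panels.

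The ATL share of all cells was also lower after R-UUO. ATL took 12.9%, 11.5%, 11.1% and 12.4% of control pools 1 to 4 and 2.72%, 2.11%, 3.57% and 1.86% of day 28 pools 1 to 4. It took 4.43% and 5.30% of the day 84 pools. Again no pool after R-UUO overlapped the controls. In log2 odds, ATL fell by 2.41 at day 28 (SE 0.235, adjusted p by limma 2.48e-05 over 25 clusters). The exact two-sided permutation p was 0.0286, the smallest that 4 pools against 4 can give. By day 84 it had dropped by 1.42 (SE 0.287, adjusted p by limma 0.00364), and the exact permutation p of 0.0667 is the smallest for 4 against 2. Many clusters changed, and of the 25 clusters 36% were called lower at day 28 and 12% at day 84. Counted from the most negative change, ATL had rank 5 at day 28 and rank 4 at day 84. IM-TL fell by 1.88 at day 28 and by 1.40 at day 84. The paper reports intact inner medulla but variable outer medulla in the dissected tissue. Loss of ATL cells and a changed mix of inner and outer medulla cannot be told apart from these shares. Cells that lost ATL features would carry another label, so fewer ATL cells and fewer cells labelled ATL cannot be told apart. By imaging another mouse strain, the paper counted nephron-labelled cells lacking the water channel AQP1, which it reads as ATL and thin limb cells. Their percent of labelled cells did not change at day 28, and the authors point out the contrast with their single-cell data. The imaged mice had a 5-day clamp, and their day 28 controls had a kidney removed, unlike the healthy controls here. At day 84 they report fewer nephron-labelled cells in the inner medulla.

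Within the thin limb, taken as ATL, DTL and IM-TL (a thin limb cluster of the inner medulla) together, ATL was 38.7% ± 3.18 of these cells in the 4 control pools (SD). The day 28 pools averaged 21.8% ± 5.39 and the day 84 pools 30.1% ± 0.640. The control pools ranged from 34.5% to 42.1%, above every later pool.

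Between the later times, the call depended on the denominator. The share of LOH cells was 1.05 higher in log2 odds at day 84 (SE 0.331, adjusted p by limma 0.0403), with 14.3% of LOH clusters called higher. The share of all cells was 1.00 higher (SE 0.287) and did not pass (adjusted p by limma 0.0528), with 8% of clusters called higher. The exact permutation p was 0.133 in both cases. Leaving out 1 pool ended the call among LOH cells for 7 of the 10 pools, namely control pools 3 and 4, day 28 pools 1, 2 and 4 and both day 84 pools, and the difference ranged from 0.87 to 1.25.

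A ratio of ATL cells to one other cluster leaves all remaining tissue out of the denominator. Control pools held 0.993 ± 0.165 ATL cells per DTL cell (SD, n = 4 pools), and day 28 pools held 0.359 ± 0.0871 (SD, n = 4). The log2 ratio fell by 1.49 (SE 0.296, adjusted p by limma 7.72e-04), and 4 of 4 day 28 pools lay below all controls. At day 84 the ratio was 0.566 ± 0.00441 (SD, n = 2). Its log2 change of -0.80 missed the threshold (SE 0.362, adjusted p by limma 0.0693), while 2 of 2 pools lay under the control range.

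For IM-TL no difference was detected. The ratio was 1.79 ± 0.250 ATL cells per IM-TL cell in controls, 1.47 ± 0.699 at day 28 and 1.83 ± 0.278 at day 84. The log2 changes were -0.45 (SE 0.439) and 0.03 (SE 0.538), with adjusted p by limma of 0.373 and 0.954. The pools overlapped at both times, and those of day 28 spread from 0.508 to 2.18.

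Collecting duct cells of the inner medulla, which run beside the thin limbs and reabsorb water, gave ratios whose change did not pass the test. Controls had 1.18 ± 0.372 ATL cells per deepIM-CD cell and day 28 had 1.54 ± 1.15, a log2 change of 0.16 (SE 0.481, adjusted p by limma 0.771). Per IM-CD cell the means were 1.39 ± 0.452 and 1.42 ± 0.220, a log2 change of 0.09 (SE 0.336, adjusted p by limma 0.793). The day 28 pools ran from 0.626 to 3.21 ATL cells per deepIM-CD cell, beyond the control range of 0.832 to 1.70 on both sides. At day 84 the pools held 1.04 and 1.31 ATL cells per deepIM-CD cell (log2 change 0.03, SE 0.589, adjusted p by limma 0.954). Per IM-CD cell they held 0.822 and 1.32, the first below all controls (log2 change -0.35, SE 0.411, adjusted p by limma 0.452). Standard errors of this size do not show that the ratios stayed the same.

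Over all 24 other clusters, ATL fell relative to 18 at day 28, or 75% of those tested, and relative to 17 at day 84, or 70.8%. It rose relative to 0 clusters at either time by limma, and relative to 0 at an unadjusted p under 0.05. All 24 ratios share the same ATL counts, so they are not separate tests, and growth of the other cluster also lowers its ratio. By share of all cells, 13 of 25 clusters were called higher and 9 lower at day 28. At day 84, 9 were called higher and 3 lower. Besides IM-TL, deepIM-CD and IM-CD, those not passed at day 28 were Fib (a fibroblast cluster), EndoVR/papilla (endothelium of the vasa recta and papilla) and Endo_b. At day 84, DTL and the thick limb cluster ISOM-TAL did not pass and Endo_b did. The day 84 count of 17 was 10 without control pool 1, without control pool 4 or without day 84 pool 2, and 9 without day 84 pool 1.

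The changes at day 28 ran from -8.40, against InjuredLOH, to 0.81, against EndoVR/papilla. Controls held 51.4 to 168 ATL cells per InjuredLOH cell, the day 28 pools 0.129 to 0.454 and the day 84 pools 0.417 and 2.09. Per EndoVR/papilla cell there were 3.00 to 4.39 ATL cells in controls, 2.17 to 34.2 at day 28, and 5.51 and 11.6 at day 84. Both extremes involve few cells of the other cluster. InjuredLOH had 25, 54, 9 and 29 cells in control pools 1 to 4, and EndoVR/papilla had 8 in day 28 pool 4. InjuredCD (12, 17, 8 and 19) and PT-S1S2 (16, 22, 15 and 9) were also sparse in control pools 1 to 4. Between the later times ATL rose relative to 4 clusters, or 16.7%, which were PT-S1S2, OSOM-TAL_a, Endo_a and Peri, and 7 clusters had an unadjusted p under 0.05. This count of 4 was 0 without day 28 pool 2 or either day 84 pool, 1 without control pool 1 and 2 without day 28 pool 3.

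**Figure D2:**
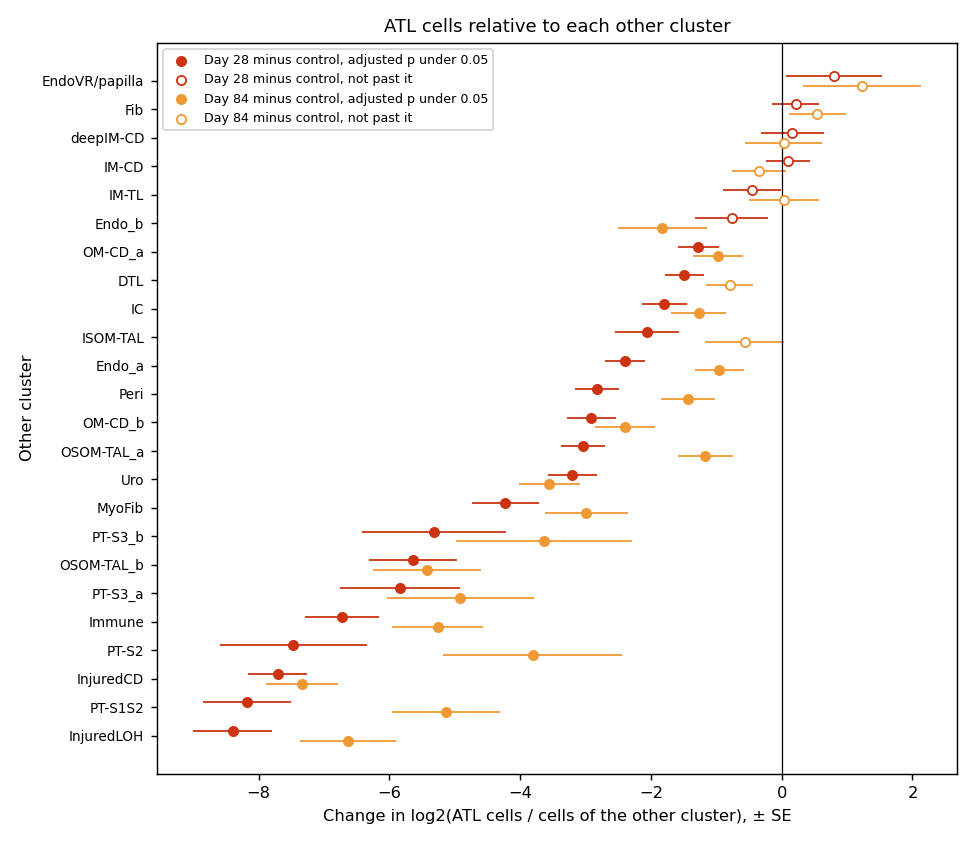
Change from control in the log2 ratio of ATL cells to the cells of each of the 24 other clusters, at day 28 and day 84, with standard errors from limma. Filled points passed an adjusted p of 0.05; the 6 open points at day 28 belong to EndoVR/papilla, Fib, deepIM-CD, IM-CD, IM-TL and Endo_b.

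ATL cells carried few UMIs in controls and ranked higher among the clusters after R-UUO. The median was 974, 1218, 968 and 973 UMIs per ATL cell in control pools 1 to 4. It was 2561, 1651, 1574 and 1512 in day 28 pools 1 to 4, and 924 and 728.5 in the day 84 pools. Day 28 pools were all above the controls and day 84 pools all below them. Counted from the lowest of the 17 clusters with at least 20 cells in every pool, ATL had rank 3 to 5 in controls, 6 to 8 at day 28, and 11 and 9 at day 84.

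**Figure D3:**
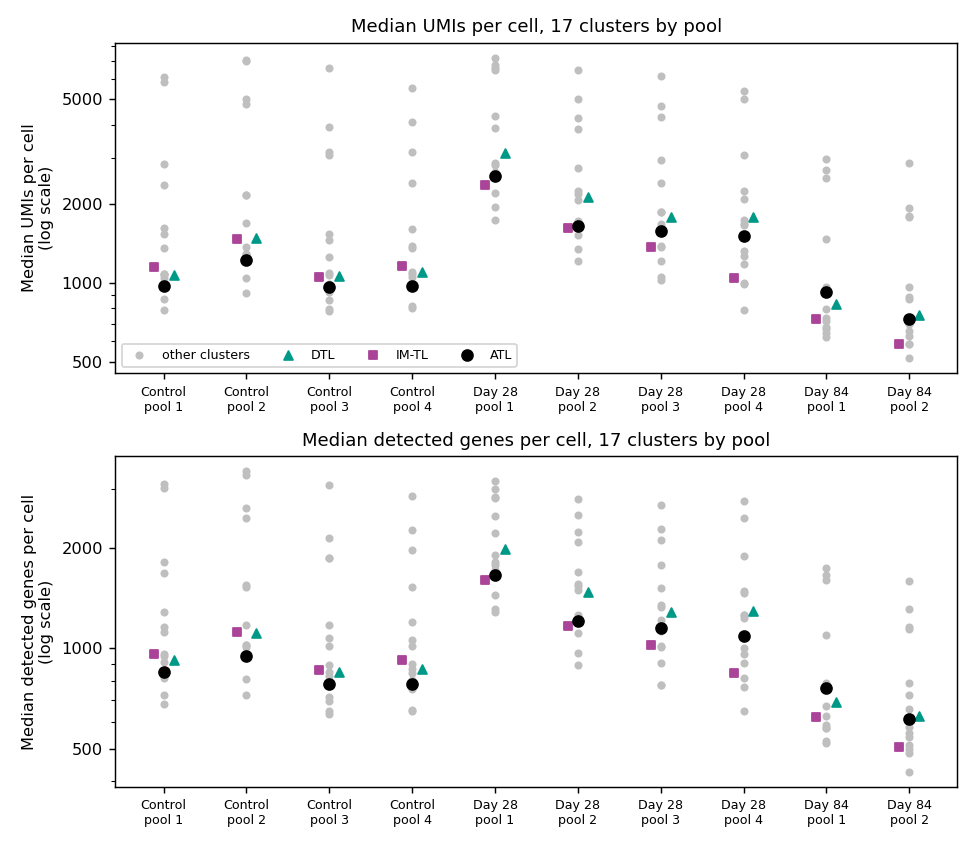
Median UMIs and median detected genes per cell for 17 clusters in each pool, on log axes. In UMIs, ATL lies under DTL and IM-TL in all 4 control pools and above IM-TL in all 6 pools after R-UUO.

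The log2 median rose by 0.79 at day 28 (SE 0.247, adjusted p by limma 0.00490, exact permutation p = 0.0286). So did other clusters, with 58.8% of the 17 called higher and a median change of 0.63. The day 84 change of -0.33 missed the threshold (SE 0.303, adjusted p by limma 0.322), and 52.9% of clusters were called lower. It was -0.50 without day 84 pool 1, -0.15 without day 84 pool 2, and -0.08 among cells with at least 500 genes and at most 5% mitochondrial UMIs. Day 84 was below day 28 by a log2 difference of -1.12 (SE 0.303, adjusted p by limma 4.40e-04, exact permutation p = 0.0667), as were 100% of clusters. Clusters of a pool share its depth, so these limma values rest on clusters that move together.

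The median of ATL was also divided by the geometric mean of the medians of the other clusters, which takes out depth that all clusters of a pool share. Controls gave 0.641 ± 0.0252 of that mean (SD, n = 4 pools), day 28 gave 0.791 ± 0.0696 (SD, n = 4) and day 84 gave 0.860 ± 0.0795 (SD, n = 2). No pool after R-UUO was within the control range of 0.606 to 0.661. The log2 change was 0.30 at day 28 (SE 0.0803, adjusted p by limma 0.00684, exact permutation p = 0.0286), with 35.3% of clusters called higher. For day 84 it was 0.42 (SE 0.0983, adjusted p by limma 0.00727, exact permutation p = 0.0667), with 17.6% called higher. The reference was not fixed. On this scale clusters ran from -1.10 (deepIM-CD) to 0.47 (MyoFib) at day 28. At day 84 they ran from -0.92 (Uro) to 0.65 (ISOM-TAL). DTL changed by 0.39 at day 28 (adjusted p by limma 4.44e-04) and 0.17 at day 84 (adjusted p by limma 0.140). IM-TL changed by -0.17 at both times, without a call.

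Both calls depended on the reference or on a pool. Against DTL and IM-TL alone, the day 28 change was 0.18 (adjusted p by limma 0.105). Against the median of all other cells it was 0.07 (adjusted p by limma 0.483). At day 84 the change against all other cells was 0.34 (adjusted p by limma 0.0714), and without day 84 pool 1 the change against the other clusters was 0.33 (adjusted p by limma 0.120).

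The thin limbs changed order in UMIs. Medians of IM-TL cells were 1148, 1470, 1051 and 1158 in control pools 1 to 4, above ATL in each. They were 2364, 1614, 1371 and 1048 in day 28 pools 1 to 4 and 726 and 584.5 in the day 84 pools, below ATL in each. ATL stayed under DTL in 9 of 10 pools, the exception being day 84 pool 1, with 924 against 831 UMIs.

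ATL cells of one pool also spread more widely after R-UUO. The UMI count at the 90th percentile was 2.67 to 3.45 times that at the 10th in control pools, 3.32 to 8.24 times in day 28 pools, and 5.49 and 3.94 times in the day 84 pools. Day 28 pool 4, at 3.32, lay inside the control range and the other later pools lay above it.

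Detected genes followed UMIs. The median was 841.5 ± 78.1 genes per ATL cell (SD) over the 4 control pools, 1278 ± 261 over the 4 pools of day 28 and 687 ± 104 over the 2 of day 84. The log2 median rose by 0.59 at day 28 (SE 0.190, adjusted p by limma 0.00837, exact permutation p = 0.0286), where 52.9% of clusters were called higher. Without control pool 4 the change was 0.55 (adjusted p by limma 0.0520). The day 84 change of -0.30 did not pass (SE 0.232, adjusted p by limma 0.223), although 76.5% of clusters were called lower, and it was -0.45 without day 84 pool 1, -0.14 without day 84 pool 2 and -0.08 with the stricter filter on cells. Relative to the other clusters, genes rose by 0.25 at day 28 (SE 0.0559, adjusted p by limma 0.00208) and by 0.35 at day 84 (SE 0.0684, adjusted p by limma 0.00266), where 35.3% and 17.6% of clusters were called higher. The day 28 call was lost against DTL and IM-TL (0.14) and against all other cells (0.10).

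Within one window of UMI counts, no difference in genes was detected. Of ATL cells with at least 1000 and fewer than 1500 UMIs, the median was 974, 920, 919 and 905 genes in control pools 1 to 4 and 970, 948, 927.5 and 945 in day 28 pools 1 to 4. The day 84 pools gave 961 and 903. These ranges overlapped, and control pool 1, with fractional UMI totals, was the highest of the controls. The log2 changes were 0.03 (SE 0.0426, adjusted p by limma 0.864) and 0.00 (SE 0.0522, adjusted p by limma 0.943). An interval of 2 standard errors runs from -0.06 to 0.11 at day 28 and from -0.10 to 0.11 at day 84. Of the 6 clusters in this fit, 0% were called at day 28 and 16.7% at day 84. The window does not fully match depth, since the median of its ATL cells was 1126 to 1177 UMIs in control pools, 1238 to 1262 in day 28 pools, and 1210 and 1154 in the day 84 pools. The fewest such ATL cells in a pool were 35, in day 28 pool 1.

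The place of ATL cells within the range of UMI counts differed between conditions. LOH cells of each pool were split by UMI count into 5 bins of equal size, from the fewest UMIs (bin 1) to the most (bin 5). ATL made up 45.6% ± 5.72 of bin 1 and 17.6% ± 4.98 of bin 5 in controls (SD, n = 4 pools). Day 28 had 12.3% ± 4.71 and 5.03% ± 3.47 (SD, n = 4), and day 84 had 13.2% ± 0.227 and 14.3% ± 1.63 (SD, n = 2). Controls thus held ATL mainly among shallow LOH cells, while day 84 pools held it about evenly.

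**Figure D4:**
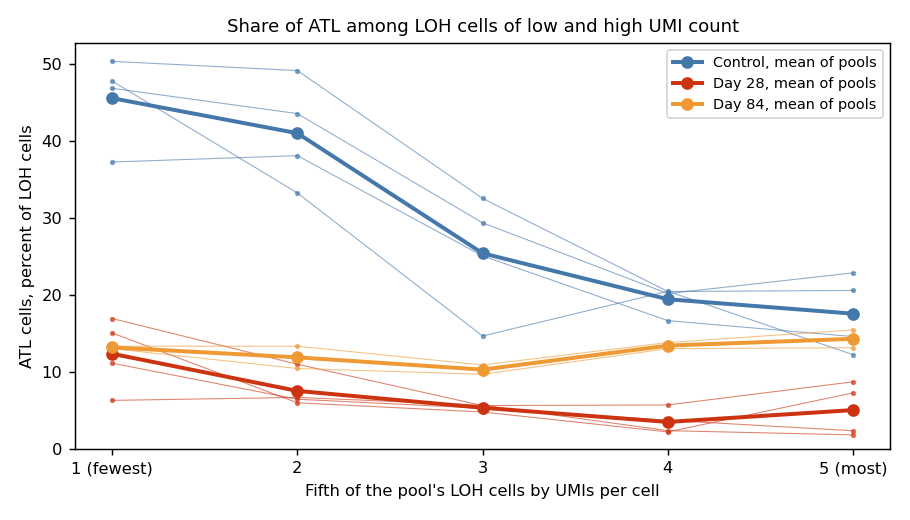
ATL cells as a percent of LOH cells in 5 equal bins of a pool's LOH cells ranked by UMIs per cell. Thin lines are pools and thick lines are means of the pools; in the bin with the most UMIs the day 84 pools (13.1% and 15.4%) lie inside the control range of 12.2% to 22.9%.

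In bin 1 the control pools ranged from 37.3% to 50.3% and the later pools from 6.29% to 16.9%. In bin 5 the day 28 pools, at 1.81% to 8.71%, lay below all controls, and the day 84 pools did not. The bins were drawn after the data were seen and carry no test. Other LOH clusters changed in number and depth as well, and their part in these shares was not tested. Among LOH cells with at least 1000 and fewer than 1500 UMIs, ATL was 28.6% ± 3.95 in controls, 11.9% ± 5.47 at day 28 and 13.5% ± 2.67 at day 84. From 1500 to 2000 UMIs the shares were 17.5% ± 4.08, 9.20% ± 4.16 and 18.8% ± 3.65, and from 2000 to 3000 UMIs they were 16.0% ± 3.74, 5.08% ± 2.18 and 16.4% ± 2.75. The day 84 share was thus below the controls up to 1500 UMIs and not between 1500 and 3000 UMIs. From 3000 UMIs on it was 10.1% ± 1.23, against 22.1% ± 9.41 in controls.

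The mitochondrial percent listed for ATL cells was lower after R-UUO in every pool. The mean share of a cell's UMIs was 1.09%, 1.70%, 1.06% and 1.08% in control pools 1 to 4. It was 0.205%, 0.0169%, 0.0246% and 0.0431% in day 28 pools 1 to 4, and 0.141% and 0% in the day 84 pools. No later pool overlapped the controls. In day 84 pool 2 the percent is listed at exactly 0 in all 1258 ATL cells and in 12 of 17 clusters, although every cell uses these genes. The authors corrected for ambient RNA, and the methods do not say whether the listed percent was computed before or after that step. The part of that correction in the values was not tested. On the scale of log2(percent + 0.1), which understates changes of low values, the mean fell by 3.04 at day 28 (SE 0.392, adjusted p by limma 9.18e-09, exact permutation p = 0.0286). At day 84 it had decreased by 3.08 (SE 0.480, adjusted p by limma 2.81e-07, exact permutation p = 0.0667), and with 0.01 added in place of 0.1 the value was -4.97.

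**Figure D5:**
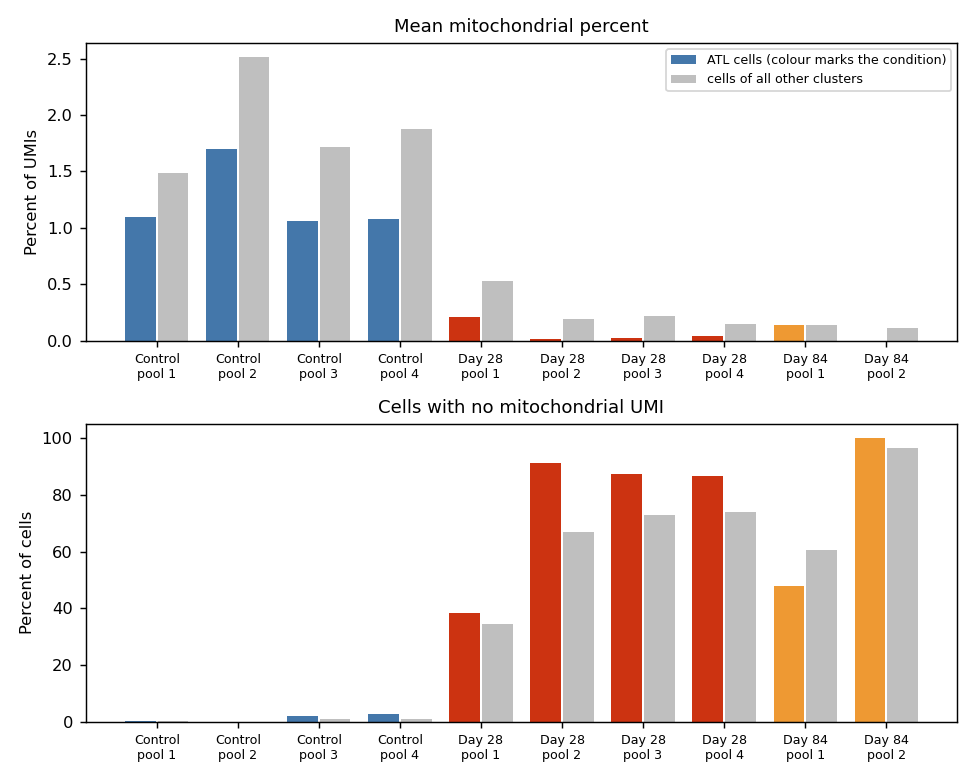
Mean mitochondrial percent and percent of cells with no mitochondrial UMI in each pool, for ATL cells and for the cells of all other clusters. Both sets of cells were at 1.06% or more in every control pool and at 0.532% or less in every pool after R-UUO.

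The fall was shared by the other clusters. It was called in 100% of the 17 clusters at day 28 and in 94.1% at day 84. As for UMIs, the limma values of the mitochondrial measures therefore rest on clusters that move together. Relative to the mean of the other clusters, the ATL change was 0.00 at day 28 and 0.36 at day 84, with adjusted p by limma of 0.992 and 0.291. Control pools 1 to 4 held 7, 0, 33 and 66 ATL cells without a mitochondrial UMI, at most 2.61% of a pool. At day 28 such cells were 38.4% of ATL in pool 1 and 86.6% to 91.2% in pools 2 to 4, and at day 84 they were 47.8% and 100%. Their log2 odds rose by 9.93 at day 28 (SE 2.14, adjusted p by limma 1.75e-05, exact permutation p = 0.0286). At day 84 they rose by 13.49 (SE 2.63, adjusted p by limma 1.58e-06, exact permutation p = 0.0667), and 100% of clusters rose at each time. The day 84 value rests on pools at or near 0% and 100% and was 7.77 without day 84 pool 2 and 19.2 without day 84 pool 1.

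Among the LOH clusters with at least 20 cells in every pool, ATL was neither the lowest nor the highest in listed mitochondrial percent in 9 of 10 pools. The other LOH cells together averaged 1.68% to 2.62% in control pools, where the thick limb cluster ISOM-TAL alone averaged 4.16% to 5.31%. IM-TL averaged 1.85% to 2.45% and DTL 1.16% to 1.95% there, and both exceeded ATL in 4 of 4 control pools. Of the 5 other LOH clusters in this comparison, 1 or 2 lay below ATL in each control pool, in each case OSOM-TAL_a or OSOM-TAL_b, clusters of the thick limb. In day 28 pools 1 to 4 the number below ATL was 2, 2, 3 and 4, and in the day 84 pools it was 4 and 0. In day 28 pools 3 and 4 and in day 84 pool 1 the ATL mean was above that of DTL, for example 0.141% against 0.0724% in the last. Day 84 pool 2 had a mean of 0% in ATL, DTL and IM-TL cells, beside 0.306% in its LOH cells other than ATL. Of the thick limb clusters there, ISOM-TAL averaged 3.23%, OSOM-TAL_a 0.00127% and OSOM-TAL_b 0%.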

How the data were processed

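Fixed single cells of BALB/c renal medulla were profiled with gene probes. Per the labels, the authors used Cell Ranger 7.1 and the mm10 build. Per the methods, cells under 300 genes or over 10% mitochondrial reads were dropped, SoupX corrected ambient RNA, scDblFinder removed doublets, and Seurat gave the clusters, which were taken as given. The authors deposited for each cell a UMI total (counts, or expected counts that are fractional in control pool 1), a count of detected genes and a mitochondrial percent.

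Shares became log2 odds and ratios log2 ratios after adding 0.5 cells, and depths log2 medians of clusters with at least 20 cells in every pool. The conditions shared one limma fit per measure (version 3.58.1, R 4.3.3), with Benjamini-Hochberg adjustment over its clusters and a threshold of 0.05, beside exact two-sided permutation tests on pools. P-values measure the spread between pools only. Fits of both shares and of relative UMIs were tested on simulated data, for day 28 against control only. The day 84 contrasts and the other measures were not simulated. Per-cell totals cannot be thinned, so cells of like UMI count were compared. Members, lists and named clusters (ATL, its thin limb and inner medullary neighbors, and the extremes of the ratios) were chosen with earlier results of these data known. Alternatives were stricter filters, other denominators, references and scales, fits of 2 conditions, and leaving out each pool.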

Additional observations from a re-analysis of the deposited data

Results flagged for a closer look

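Of 18 sets of 4 pools checked for a pool far from the others, 5 held one, where chance gives about 0.9 on average. The sets are overlapping measures of the same pools, so hits come together and this comparison is no test. Control pool 2 stood apart in the median UMI count of ATL cells (1218 against 968 to 974 in the other control pools) and in their mean mitochondrial percent (1.70 against 1.06 to 1.09). Day 28 pool 1 stood apart in the median UMI count (2561 against 1512 to 1651), in the mean mitochondrial percent (0.205 against 0.0169 to 0.0431) and in the share of ATL cells with no mitochondrial UMI (38.4% against 86.6% to 91.2%). The other cells of these pools were the deepest of their condition as well, with medians of 1651 UMIs in control pool 2 and 3315 in day 28 pool 1. Neither pool was far from the others in the UMI count of ATL relative to other clusters.

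The times after R-UUO differed from each other in 3 values, given as day 84 against day 28. The share of LOH cells that are ATL was higher (log2 odds difference 1.05, adjusted p by limma 0.0403), the median UMI count was lower (log2 change -1.12, adjusted p by limma 4.40e-04) and so were the median detected genes (log2 change -0.88, adjusted p by limma 2.95e-04). In the last 2 comparisons 17 of 17 clusters were called lower, and time and the inferred droplet run cannot be told apart.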

How the results depend on the processing

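Of 471 alternative values for 30 results, 418 kept their direction and call, or a count within 1.5 times, though not always their size. Many could hardly move a value, such as leaving out a pool of the condition not compared. Results without a call count as kept when they stay without one. The lower ATL share at day 28 and day 84 against control, of LOH and of all cells, kept its call without any 1 pool. The exception among settings was cells of 1000 to 1500 UMIs, chosen after seeing the data. There the day 84 share of LOH changed by -1.36 and did not pass (limma adjusted p = 0.0589). The day 28 share changed by -1.67 in these cells and kept its call.

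The rise in LOH share from day 28 to day 84 lost its call without the outer medullary clusters (1.02), on the arcsine scale (0.10), at 1000 to 1500 UMIs (0.31), with at least 500 genes and at most 5% mitochondrial UMIs (1.10), with only the 2 conditions (1.05) and with the replicate block (1.04), and ran from 0.87 to 1.25 without 1 pool. The rise in share of all cells gained a call on the arcsine scale (0.0626), with the stricter filter (1.03) and without immune cells and fibroblasts (0.94), and ran from 0.85 to 1.17 without 1 pool, passing without day 28 pool 3 (limma adjusted p = 0.0421).

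Relative UMIs at day 28 did not pass against DTL and IM-TL (0.18) or all other cells (0.0739), nor did relative genes (0.14 and 0.10). Relative UMIs at day 84 did not pass against all other cells (0.34) and ran from 0.33 to 0.52 without 1 pool. Relative genes differed between day 84 and day 28 with the stricter filter (0.20). The rise of genes at day 28 ran from 0.45 to 0.66 without 1 pool. Cells of 1500 to 2000 UMIs gave gene changes of -0.0903, -0.0707 and, between the later times, 0.0197, opposite in sign and not called, and too few ATL cells had 700 to 1000 UMIs for a fit. Without 1 pool the matched change at day 84 ran from -0.0412 to 0.0487, with reversed values of -0.0412, -0.00891, -0.00153 and -0.00100, and that between the later times from -0.0694 to 0.0204.

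Relative to other clusters the mitochondrial changes were 0.00187, 0.36 and 0.35, opposite in sign. Between the later times the mitochondrial change was 0.17 with the block and ran from -0.67 to 0.60 without 1 pool, reversing to 0.28 and 0.60, and the share without mitochondrial UMIs ran from -2.16, without day 84 pool 2, to 9.26, without day 84 pool 1, where it passed (limma adjusted p = 1.19e-04). Ratio counts at day 84 ran from 9 to 19 without 1 pool and were 11 with the block, and between the later times from 0 to 4 and 0 with the block. The block, chosen after seeing the data, joined pools that share a probe barcode. Their deviations did not move together (median correlation -0.33 over 8 pairs), so it is no pairing. Where a value moved, the cause was not tested. The 2 pools at day 84 limit every statement about that time, and pools inferred to share one droplet run would leave out the spread between runs.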

Other observations

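ATL cells gave a smaller part of the RNA than of the cells. They supplied 6.59% ± 1.41 of UMIs (SD) over the 4 control pools, 2.06% ± 0.861 over the 4 of day 28 and 4.10% ± 0.230 over the 2 of day 84, and this was below their share of cells in 10 of 10 pools. The deepest ATL cell of a pool had 32562 to 41110 UMIs in controls, 15196 to 148844 at day 28, and 13685 and 7671 in the day 84 pools. Of ATL cells, 0.856% to 3.38% had fewer than 500 detected genes in controls and 1.38% to 6.28% at day 28. The day 84 pools had 15.1% and 26.9%, beside 12.9% and 30.8% of their other LOH cells.

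Across the ATL cells of one pool, which share a library, Spearman's rho between UMI count and mitochondrial percent was 0.18 to 0.26 in the control pools. It was -0.13, -0.04, 0.04 and 0.42 in day 28 pools 1 to 4 and -0.16 in day 84 pool 1.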
